A study of Mus musculus with 12 samples.

Results

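The count-table rows labelled Tlr4 (ENSMUSG00000039005) and Tgfbr1 (ENSMUSG00000007613), 2 of 57010 rows, were taken by their Ensembl identifiers, and both were followed through all 12 libraries. They carry the names of receptors for a pair of the agents that had been given to the vesicle-making cells. The recipients were BV2 cells, an established mouse microglial line, which received extracellular vesicles (EVs) for 24 h before RNA sequencing. The 4 groups, of 3 libraries each, differ in the donor BV2 cells: without an agent (control_EV), or given LPS (LPS_EV), TGF-beta (TGFB_EV) or IL-10 (IL10_EV) before their vesicles were collected. Every group received vesicles, and no group given an agent directly or given no vesicles was analysed here. Recipients and donors of all groups were the same line. The labels do not say that the replicates were separate cultures, so p-values measure the spread between these libraries, which may be technical.

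TLR4 is the receptor for bacterial lipopolysaccharide. With its partner MD-2 and with CD14 it binds LPS, and through the adaptors MyD88 and TRIF it leads to NF-kB and interferon-regulatory transcription in microglia and macrophages. TGFBR1, also called ALK5, is the kinase receptor that works with TGFBR2 and phosphorylates the transcription factors SMAD2 and SMAD3, a route known for keeping microglia in their resting state.

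The first question was whether the 2 rows hold counts of the genes they are named after, because the levels of many rows of these tables did not go with their labels. The exons of each row were placed with GENCODE M21 and moved along the chromosome by the displacement that best fitted the levels of its neighbours. For the row labelled Tgfbr1 the best displacement was -0.1 kb (near-equal values from -0.1 to 0.1 kb). At -0.1 kb the row shared 5234 of its 6534 exon bases with its own gene, and without displacement it shares all 6534. Among its neighbours within 1 Mb, not all of them named here, rows of widely expressed genes were high and a neuronal one was near 0. The levels of neighbours were part of what the fit used, so they are no separate check of the placement. The rows of Anp32b, Nans, Erp44 and Sec61b, genes of general cell functions, lay at 1900, 313, 301 and 235 CPM (counts scaled to a common library size). That of Coro2a, an actin-binding protein, lay at 356 CPM. The row of Gabbr2, a neuronal receptor subunit, lay at 0.33 CPM. The row labelled Col15a1, a collagen gene, lay at 70.8 CPM.

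The identity of the Tgfbr1 row was an estimate that depended on the scoring. An earlier scoring, which did not distinguish full from partial overlap with an exon, placed the row at 8.1 kb, where it shares 450 bases with its own gene. In that scoring 8.1 kb lay 35.9 score units above no displacement and 8.7 above the best displacement over 10 kb away. The scoring was changed 2 times after results, including the places of both rows, had been seen, so the placement at -0.1 kb is not independent evidence. In the reported scoring the place at -0.1 kb lay 4.0 score units above no displacement and 164.6 above the best displacement over 10 kb away. The place at 8.1 kb is less than 10 kb away, so that margin of 164.6 was not taken against it.

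At the displacement of -0.1 kb the first exon would reach the end of the Tgfbr1 promoter, which is shown here for that reason. Near-equal displacements, up to 0.1 kb, include places that would not reach it. The window shown is longer than 0.1 kb. It holds the 250 bases before the gene's start in RefSeq (GRCm38.p6, chr4:47352972-47353221, + strand), 5′ to 3′, with capitals marking the GC box GGGCGG.
Tgfbr1 promoter: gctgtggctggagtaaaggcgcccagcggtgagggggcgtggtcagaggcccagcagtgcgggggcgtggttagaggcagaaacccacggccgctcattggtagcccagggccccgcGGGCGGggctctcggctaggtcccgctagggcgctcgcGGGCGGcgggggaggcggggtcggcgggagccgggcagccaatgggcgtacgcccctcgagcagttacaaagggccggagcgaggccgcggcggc
The window was 74.8% G or C, against a median of 52.4% over the 32851 promoter windows of the same length, and it held 29 CG pairs against a median of 6. GGGCGG stood at 133 and 95 bases before the start on the + strand. It was found on either strand in 32.7% of all windows. The TATA-box letters TATAAA, searched on both strands, were not in this window, and 12.4% of all windows held them. Nor was GAGGAA, the core that PU.1 binds, which 23.3% held, or the SMAD-box letters CAGACA, which 17.1% held. The capitals mark letters, not measured binding. RefSeq's table gave a second start for Tgfbr1, not shown here.

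The row labelled Tlr4 was placed where it holds little of the Tlr4 gene, so its values are given for the row and not as the level of the gene. Its best displacement was -81.6 kb (near-equal values from -83.0 to -81.5 kb), which scored 82.8 above no displacement and 11.4 above the best one over 10 kb away. At that place the row shared 35 of its 5556 exon bases with the GENCODE exons of Tlr4, and between 0 and 123 over the near-equal displacements. The 3572-base exon that carries most of the Tlr4 transcript was moved by -81.6 kb, off the gene's main body. What remained near the gene were 2 exons that only the long transcript Tlr4-202 has. The 123-base exon fell across the end of the main exon, in the 3′ untranslated part, and the 1267-base exon began 4.62 kb past that end, which is 0.84 kb past the end of the gene in RefSeq. RefSeq places the end of Tlr4 further on than that main exon, and all 123 bases of the shorter exon lay within the RefSeq span at each of the 3 displacements. At -83.0 kb the 1267-base exon began 0.56 kb before the RefSeq end, and 564 of its bases lay within that span too. The earlier scoring and the other penalties gave between -81.6 and -81.5 kb. The tables do not say which exon a count came from.

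**Figure D1:**
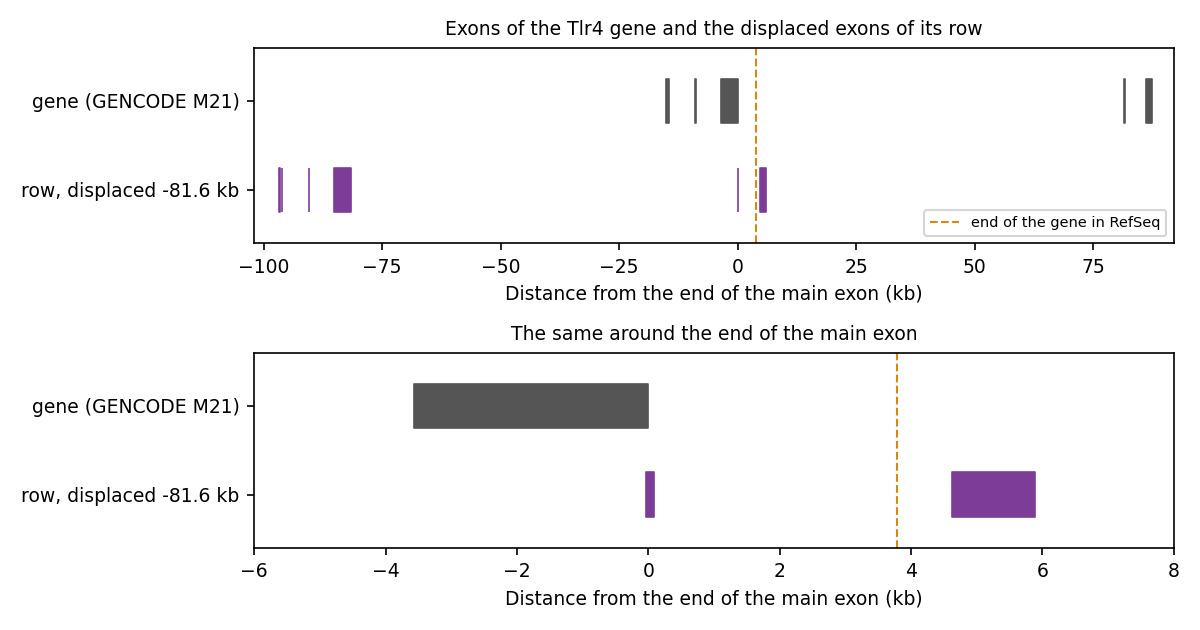
Exons of Tlr4 in GENCODE M21 (grey) and exons of its row after the fitted displacement of -81.6 kb (purple), by distance in kb from the end of the main exon, over the whole gene (top) and around that end (bottom). The dashed line is the end of the gene in RefSeq; the 2 displaced exons nearest the main exon share 35 bases with GENCODE exons, and the 123-base one lies before the RefSeq end.

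In these tables, 795 of 7116 rows of at least 5 CPM in supported stretches shared 300 or more bases with the gene of their label, and the Tgfbr1 row was among them while the Tlr4 row was not. Library totals lay between 10497757 and 13647007 counts. Replicates within a group differed by more than counting noise (chi-square divided by its degrees of freedom, 3.58 to 24.8), so none was taken for a copy of another. The values over 10 were all from pairs with TGFB_EV replicate 3 (10.01 and 16.9) or IL10_EV replicate 2 (18.7 and 24.8). Leaving out either changed no call of the 2 rows. Levels below are CPM scaled by TMM factors from all 12 libraries, and the levels of the 2 rows are not compared with each other.

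In the row labelled Tgfbr1, the receptor kinase, the highest group mean was that of TGFB_EV. TGFB_EV libraries had 293, 276 and 295 CPM (288 ± 10.5, SD, n = 3). The control_EV libraries had 295, 278 and 286 CPM (287 ± 8.34, n = 3). IL10_EV libraries had 279, 251 and 285 CPM (272 ± 18.0, n = 3), and the spread of this group came mostly from its replicate 2. LPS_EV libraries had 262, 265 and 276 CPM (268 ± 6.90, n = 3), so this group was the lowest in the order TGFB_EV, control_EV, IL10_EV, LPS_EV. The step from TGFB_EV to control_EV was smaller than the SD of either group, and so was the step from IL10_EV to LPS_EV. The counts behind these values lay between 2865 and 3903 per library, for which counting error alone is 1.87% to 1.601%.

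All 3 LPS_EV libraries lay below all 3 control_EV libraries in the Tgfbr1 row. Among all 11267 rows, 7.84% had the LPS_EV libraries all below in this way. With CPM on library totals the groups overlapped. The exact two-sided permutation test of the means gave p = 0.1, the smallest that 3 against 3 libraries allow. LPS_EV libraries also lay below all TGFB_EV libraries, as was the case in 9.56% of all rows (exact permutation p = 0.1). On TMM CPM the gap between the nearest libraries was 2.9 CPM for LPS_EV against control_EV and 0.075 CPM against TGFB_EV. Against TGFB_EV it was 2.35 CPM on library totals. Each of these gaps was below the counting error of a single library. The libraries of the other 4 pairs of groups overlapped.

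**Figure D2:**
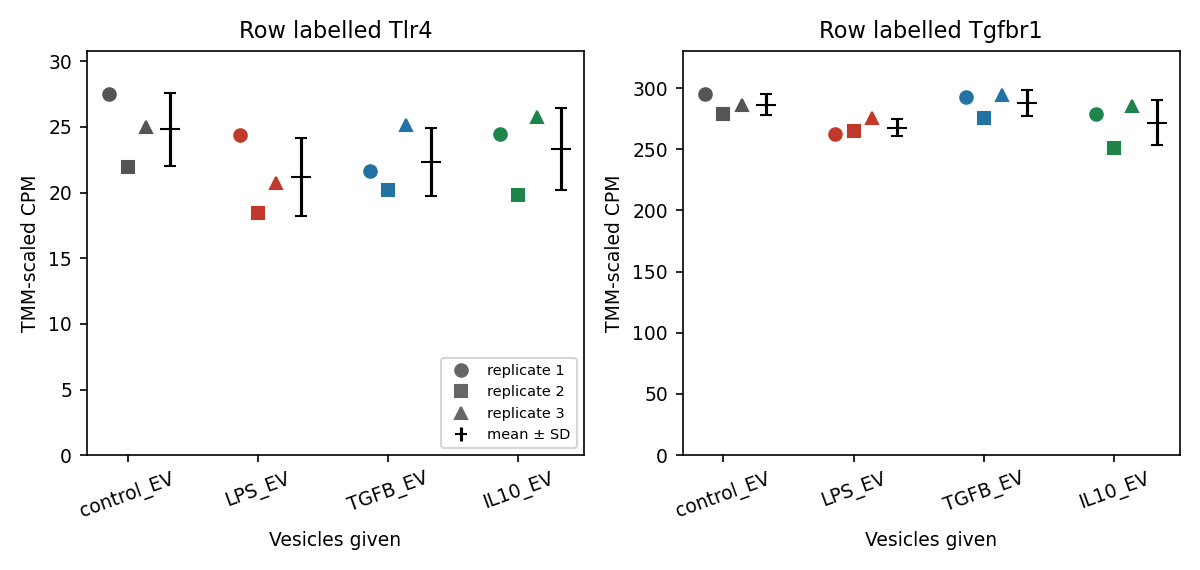
TMM-scaled CPM of the rows labelled Tlr4 (left) and Tgfbr1 (right) in each library, by the vesicles given; symbols are the replicate numbers and bars the mean ± SD of 3 libraries. Tgfbr1 libraries of LPS_EV (262 to 276 CPM) lie below those of control_EV (278 to 295 CPM), and the Tlr4 groups overlap throughout.

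None of the differences in the Tgfbr1 row passed edgeR's quasi-likelihood test at a Benjamini-Hochberg adjusted p under 0.05. For LPS_EV against control_EV the log2 fold change was -0.10 with an SE of 0.05 (adjusted p = 0.537), and the 95% interval of the fold ran from 0.867 to 1.01. In that comparison 86 of 10523 rows, 0.817%, were called, and 11.2% had an unadjusted p under 0.05. TGFB_EV against control_EV gave 0.00 (SE 0.06, adjusted p = 0.995, fold 0.918 to 1.10), where 0.038% of 10524 rows were called and 6.23% had an unadjusted p under 0.05. IL10_EV against control_EV gave -0.08 (SE 0.07, adjusted p = 0.9996, fold 0.852 to 1.06), with 0 of 10613 rows, 0%, called. By unadjusted p under 0.05, 334 rows passed for IL10_EV, 3.15%, and DESeq2 called 1. These 3 comparisons share the control_EV libraries.

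Between treatments, the log2 difference of the Tgfbr1 row was -0.10 for LPS_EV over TGFB_EV (SE 0.06, adjusted p = 0.5001). The values were -0.02 for LPS_EV over IL10_EV (adjusted p = 0.986) and 0.08 for TGFB_EV over IL10_EV (adjusted p = 0.791). The intervals of the fold ran from 0.849 to 1.02, from 0.899 to 1.08 and from 0.966 to 1.16. In these 3 comparisons edgeR called 0 of 11267 rows, 0%, while 12.8%, 5.63% and 7.47% of rows were under 0.05 before adjustment. Calls by DESeq2 numbered 88, 1 and 15. The test of any difference among the 4 groups gave an adjusted p of 0.778 for Tgfbr1 and called 0 rows, with 867 rows, 7.7%, at an unadjusted p under 0.05. DESeq2 called 58 rows there, neither member among them.

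The row labelled Tlr4 was low and its libraries spread widely. The control_EV libraries had 27.5, 21.9 and 25.02 CPM (24.8 ± 2.80, SD, n = 3). IL10_EV libraries had 24.4, 19.8 and 25.7 CPM (23.3 ± 3.11, n = 3). TGFB_EV libraries had 21.7, 20.2 and 25.2 CPM (22.3 ± 2.56, n = 3), and LPS_EV libraries had 24.4, 18.4 and 20.7 CPM (21.2 ± 2.99, n = 3). In the order control_EV, IL10_EV, TGFB_EV, LPS_EV each step was smaller than the SD of either neighbour, and the libraries of every pair of groups overlapped. These values rest on 212 to 352 counts per library, a counting error of 6.87% to 5.33%.

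In edgeR's quasi-likelihood test the Tlr4 row gave -0.23 for LPS_EV over control_EV on the log2 scale (SE 0.12, adjusted p = 0.531), and the 95% interval of the fold ran from 0.715 to 1.02. TGFB_EV over control_EV gave -0.15 (SE 0.13, adjusted p = 0.857, fold 0.745 to 1.09), and IL10_EV over control_EV gave -0.09 (SE 0.14, adjusted p = 0.9996, fold 0.765 to 1.16). These intervals were wider than those of Tgfbr1 in the same comparisons. Between treatments the values were -0.08 for LPS_EV over TGFB_EV, -0.14 for LPS_EV over IL10_EV and -0.06 for TGFB_EV over IL10_EV (adjusted p = 0.853, 0.947 and 0.940), with folds from 0.772 to 1.16, from 0.740 to 1.11 and from 0.783 to 1.17. The test across the 4 groups gave an adjusted p of 0.853.

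**Figure D3:**
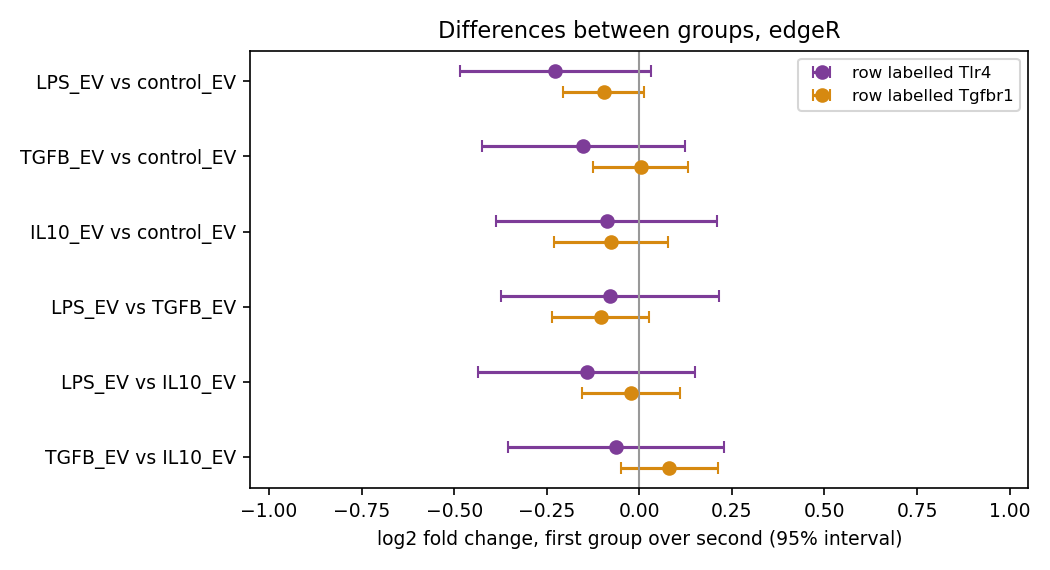
Log2 fold change of each row, first group over second, from edgeR, with its 95% interval, for the 6 comparisons of 3 against 3 libraries. All 12 intervals include 0; the largest shift is that of Tlr4 for LPS_EV over control_EV, -0.23.

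Over the 12 libraries the 2 rows were correlated, but not under every choice of libraries. Pearson's r of log2(CPM + 0.5) was 0.63 (permutation p = 0.029, two-sided) and Spearman's rank coefficient was 0.76 (permutation p = 0.00589), with Benjamini-Hochberg values over these 2 coefficients of 0.029 and 0.0118. Without LPS_EV replicate 2 and control_EV replicate 1, the libraries farthest from the Tlr4 median, r was 0.49 (permutation p = 0.16) and Spearman's coefficient 0.66 (permutation p = 0.0447). Those libraries are the extremes of the Tlr4 row, and leaving them out narrows its range. The lower r therefore cannot decide whether the relation rested on them. With each library left out in turn, r lay between 0.55 and 0.76 and its permutation p was over 0.05 in 4 of 12 cases. Spearman's coefficient lay between 0.68 and 0.85 (permutation p from 0.00134 to 0.0251). Without control_EV replicate 1 alone r was 0.55 (permutation p = 0.0806), and without LPS_EV replicate 2 alone it was 0.58 (permutation p = 0.0613). Without IL10_EV replicate 2 r was 0.56 (permutation p = 0.0723), and without TGFB_EV replicate 3 it was 0.59 (permutation p = 0.0541). With each group mean removed, r was 0.68 and Spearman's coefficient 0.59, given as a description without a test. Without all libraries numbered 2, neither coefficient had a permutation p under 0.05 (0.484 for r, 0.113 for Spearman's). The permutations did not keep libraries within their groups, and how often 2 other rows reach such an r was not computed. Both values of a library share its RNA, its depth and its TMM factor, and the part of these in r was not tested.

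**Figure D4:**
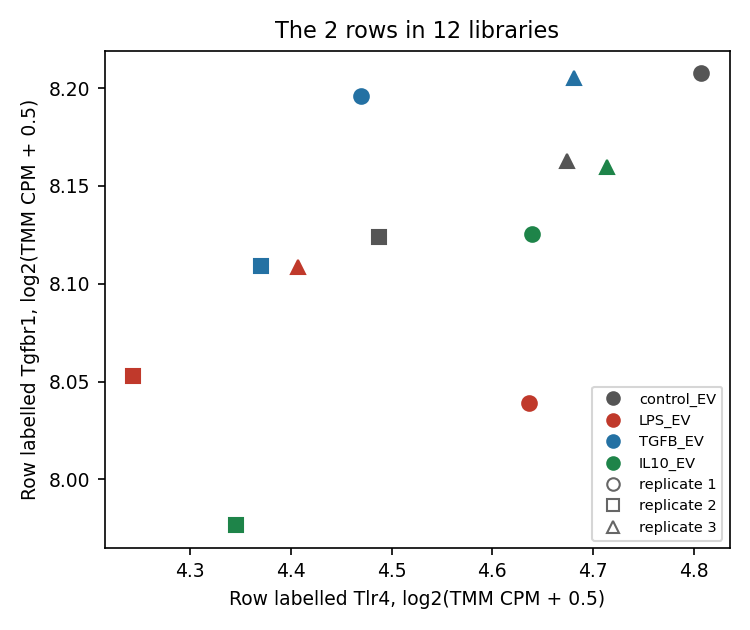
Log2(TMM CPM + 0.5) of the Tlr4 row (x) and the Tgfbr1 row (y) in the 12 libraries, coloured by group and with a symbol for the replicate number. The libraries low in both are replicate 2 of LPS_EV and IL10_EV, and r falls from 0.63 to 0.49 without LPS_EV replicate 2 and control_EV replicate 1.

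In the Tlr4 row the library numbered 2 was the lowest in all 4 groups, as in 1.03% of the 11267 rows. The same held for Tgfbr1 on library totals (1.3% of rows), but on TMM CPM LPS_EV replicate 1 was lower. This was noticed in the values and then tested in edgeR's fit with the replicate number as a term, in 2 ways. The term as a whole had an adjusted p of 0.9998 for both rows. Replicate 2 against the others, a contrast picked for the pattern, had log2 differences of -0.28 for Tlr4 and -0.09 for Tgfbr1 (adjusted p = 0.999 for both). Unadjusted, Tlr4 was under 0.05 in both tests, with 2.2% and, lower in replicate 2, 1.6% of all rows, and Tgfbr1 in neither. The pattern thus failed the correction, which 0 of 11267 rows passed in either test. The numbers are not stated to mark a shared batch.

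The rows most like each member over the 12 libraries were named by Pearson's r among 5744 other rows of at least 5 CPM with a gene symbol. Rows with a Gm number, Rik or LOC name were left out, so rows more alike may be among those. For Tlr4 these were the rows labelled Ppp1r1c (r = 0.89), Ccdc125 (0.87) and Exosc3 (0.86). Their exons, after displacement, met no coding exon by 300 bases, Slc30a5, a zinc transporter, and Exosc3, a subunit of the RNA exosome. For Tgfbr1 they were the rows labelled Tmem241 (r = 0.92), Cdca3 (0.89) and Lmbr1 (0.89), which met Npc1, a cholesterol transporter of the lysosome, Spsb2 and Nom1. These 3 were picked as the highest of many. Of the 5744 rows, 11 reached an r of 0.8 or more for Tlr4 and 40 for Tgfbr1.

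Other genes of the pathways were followed through the rows whose displaced exons shared at least 300 bases with them, so these are estimates too. Below, a gene's name stands for its matched row, which often carries another label. Whether a matched row shares more bases with another gene was not checked. For the TLR4 receptor complex and its signalling, 12 of 29 genes had such a row and all 12 were tested; the receptor partners Ly96 and Cd14 and the adaptor Myd88 had none. No member passed the adjusted test in any of the 6 comparisons. For LPS_EV over control_EV the median log2 fold change of the 12 was 0.05, against 0.00 for all rows, and for TGFB_EV and IL10_EV it was 0.04 and 0.05 against 0.00. Map3k7, which encodes the kinase TAK1 and is shared by both pathways, was matched by its own label. Its libraries had 286, 296 and 319 CPM in control_EV and 302, 296 and 285 CPM in LPS_EV, and the groups overlapped (log2 fold change -0.03, adjusted p = 0.914). Ticam1, the gene of the adaptor TRIF, lay between group means of 92.4 and 99.4 CPM. Tirap, which links TLR4 to MyD88, lay between 28.8 and 32.7 CPM. Their rows are labelled Yju2 and Rpusd4 and share 648 and 1509 bases with them. Cd180, a relative of Tlr4, had -0.24 for TGFB_EV over IL10_EV, with an unadjusted p of 0.0409 (adjusted p = 0.656). Its row is labelled Gm29927 and shares 611 bases with it.

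For the TGF-beta receptors and signalling, 12 of 26 genes had a row, Tgfbr1 included, and 9 were tested against control_EV and 10 between treatments. Tgfbr2 and the SMAD genes had none. No member passed the adjusted test, and the medians for LPS_EV, TGFB_EV and IL10_EV over control_EV were -0.02, 0.00 and -0.08, against 0.00 for all rows. The row matched to Ski, a repressor of SMAD transcription, is labelled Pex10 and shares 2131 bases with it. It had 124, 135 and 134 CPM in control_EV and 114, 119 and 118 CPM in LPS_EV. These libraries did not overlap, as in 7.84% of all rows, and the log2 difference was -0.16 (SE 0.06, unadjusted p = 0.0157, adjusted p = 0.295). For LPS_EV over TGFB_EV and TGFB_EV over IL10_EV, Ski had -0.18 and 0.19 (adjusted p = 0.388 and 0.645). Without IL10_EV replicate 2, at 98.4 CPM, the other IL10_EV libraries of Ski had 125 CPM each.

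The row matched to Skil, a relative of Ski, is labelled Prkci and shares 412 bases with it. It had 12.4, 13.1 and 10.7 CPM in TGFB_EV and 8.12, 8.60 and 8.85 CPM in IL10_EV. The libraries did not overlap, as in 5.19% of rows with TGFB_EV higher, and the log2 difference was 0.50 (SE 0.14, unadjusted p = 0.00235, adjusted p = 0.603). Bambi, a decoy receptor without a kinase that was matched by its own label, had 10.4, 9.92 and 22.5 CPM in TGFB_EV, where replicate 3 stood apart, and 19.7, 23.8 and 17.8 CPM in IL10_EV. Its log2 difference was -0.51 (unadjusted p = 0.0445, adjusted p = 0.665). Smurf2, a ubiquitin ligase that acts on the receptors, was matched to a row labelled 1810010H24Rik, which shares 331 bases with it. The row had 0 counts in all 3 TGFB_EV libraries and 4 to 16 counts in each of the other 9. The TGFB_EV libraries lay below all 9 others in 0.888% of the 11267 rows, and this was the 1 row (0.00888%) with TGFB_EV at 0 and the others above 0. These shares were computed for the pattern seen in this row, over rows that had passed the filter for low counts. Rows with fewer counts are not in them, so they do not show how rare such zeros are. The Smurf2 row did not pass the filter in the comparisons with control_EV and was not tested there. Its adjusted p was 0.0873 for LPS_EV over TGFB_EV and 0.162 for TGFB_EV over IL10_EV. In the fit of 12 libraries the row passed the filter only through counts outside TGFB_EV. These p-values are therefore a description and not support for a difference. Near such counts, 3 counts in a library correspond to 0.220 to 0.286 CPM.

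Of the IL-10 receptor and signalling genes, 1 of 7 had a row, Tyk2, a kinase of the receptor. The row is labelled Pde4a and shares 1954 bases with Tyk2. It had group means between 96.5 and 105 CPM and no call. The cell type was checked in the same way: 4 of 15 microglia and macrophage markers had a row. The row matched to Fcer1g, an Fc receptor chain, is labelled Arhgap30 and shares 421 bases with it. It lay at 1945 to 1962 CPM by group mean. That matched to Csf1r, the receptor that microglia need for survival, is labelled Camk2a, shares 570 bases and lay at 256 to 306 CPM. Its libraries ran from 278 to 349 CPM in control_EV, 283 to 304 in LPS_EV, 204 to 341 in TGFB_EV and 236 to 384 in IL10_EV. On library totals, the summed CPM of the 4 ranged from 2384 to 2524 in control_EV and from 2355 to 2483 in LPS_EV. It ranged from 2292 to 2523 in TGFB_EV and from 2253 to 2571 in IL10_EV. Most of each sum came from the row matched to Fcer1g. The row matched to Ptprc, encoding CD45, is labelled Gm28556 and shares 673 bases with it. It had 8.79, 6.51 and 7.35 CPM in control_EV and 9.53, 10.6 and 10.1 CPM in LPS_EV (log2 fold change 0.42, unadjusted p = 0.0244, adjusted p = 0.351). The matched astrocyte (2 of 6), neuron (2 of 6) and fibroblast or endothelial markers (5 of 7) were all under 1 CPM, and so were 2 of the 3 matched oligodendrocyte markers of 6. The remaining oligodendrocyte marker, Cnp, went the other way. Its matched row, labelled Dhx58os, lay at 22.4 to 25.8 CPM by group mean, above that of Ptprc at 7.55 to 10.1 CPM. In bulk RNA, fewer cells of a type and less RNA per cell cannot be told apart.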

How the data were processed

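RNA-seq counts of 12 BV2 libraries were analysed, grouped by the sample titles. Per the labels' protocols, cDNA was made with SMART-Seq v4 and libraries with Nextera XT, kits that do not mark strand. The values that the authors deposited are raw counts per Ensembl gene ID, and 1 of the 4 tables repeated another and was dropped. All tables hold the same control_EV values. DESeq2 is named in the submitters' processing notes. The aligner, counter and build were not given in the sources used here. Symbols were matched for 52029 of 57010 rows.

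The test was the quasi-likelihood F test of edgeR 4.0.16 (R 4.3.3) after TMM scaling and filterByExpr at 10 counts, called at a Benjamini-Hochberg adjusted p under 0.05. Each group was compared with control_EV on its own 6 libraries, and pairs of treatments and all 4 groups in a fit of 12. DESeq2 1.42.0 was an alternative. Correlations used log2(TMM CPM + 0.5) with 100000 resamples. The edgeR test was tested on simulated data. Alternatives were other size factors, no filter, a filter of 1 CPM in every library, the replicate block and leaving out each library. RefSeq's table gave no promoter window for Tlr4.

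Row displacements were fitted without group labels in steps of 100 bp, within 1000 kb to either side (from -1900 to 500 kb on the X chromosome), with a penalty of 15 per change of displacement. A stretch was supported at 5 score units above the best place over 10 kb away, which held for 83 of 96. The score used probabilities, set by hand, of 4 level classes for rows that meet widely expressed, other or no coding exons. Its simulated check drew from those same probabilities and bears on no real row. The third scoring tried is the one reported.

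The 2 rows, the gene lists and the rules for named genes were chosen with earlier results of these data known. Named were the 2 rows, list members with an unadjusted p under 0.05 or a role given in the text, and the 3 rows most like each. The floors and counting errors cover counting error only, since reads carry no molecular identifiers; the intervals of fold changes come from edgeR and include the spread between libraries. The replicate numbers are not stated to pair the libraries, and the main tests used no pairing. Deviations of same-numbered libraries correlated by -0.44 to 0.26, over 0.1 in 4 of 18 pairs. These values cannot decide whether some libraries are paired.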

Additional observations from a re-analysis of the deposited data

How the results depend on the processing

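Neither row was called under any alternative. In the fits that left out no library, the direction of all 12 differences was kept. With a library left out, 9 of 108 refits reversed a difference near 0. These were Tgfbr1 for TGFB_EV over control_EV (-0.017 without control_EV replicate 2, -0.0097 and -0.014 without TGFB_EV replicates 1 and 3; range -0.017 to 0.036), Tlr4 for IL10_EV over control_EV (0.017 without IL10_EV replicate 2; range -0.17 to 0.017), and Tgfbr1 for LPS_EV over IL10_EV (0.013 without IL10_EV replicate 3; range -0.084 to 0.013). Tlr4 for LPS_EV over TGFB_EV was 0.0035 without LPS_EV replicate 2 and 0.0087 without TGFB_EV replicate 3 (range -0.20 to 0.0087), and for TGFB_EV over IL10_EV 0.0046 without TGFB_EV replicate 2 and 0.013 without IL10_EV replicate 3 (range -0.17 to 0.013). For LPS_EV over control_EV the ranges were -0.34 to -0.14 for Tlr4 and -0.12 to -0.07 for Tgfbr1, with adjusted p from 0.318 to 0.792 and from 0.524 to 0.758. The cause was not tested. With fewer libraries in each fit the estimates are less exact.

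The correlation of the 2 rows ranged from 0.55 to 0.76 with 1 library left out. It was 0.49 (permutation p = 0.16) without the 2 libraries farthest from the Tlr4 median and 0.29 (permutation p = 0.484, added after seeing the data) without all 4 libraries numbered 2, which leaves 8; Spearman's coefficient was then 0.62 (permutation p = 0.113).

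Counts of called rows, the background for both, moved more. For LPS_EV against control_EV, 86 became 165 without a filter, 209 with the replicate block, 0 in the fit of 12 libraries and 18 to 127 with a library left out. For TGFB_EV, 4 became 111 without a filter, 20 in DESeq2, 0 in the fit of 12 and 0 to 419, the most without TGFB_EV replicate 3. For IL10_EV, 0 became 22 without a filter, 3 with the block and up to 2. For LPS_EV against TGFB_EV, 0 became 340 without a filter, 120 in a fit of their 6 libraries, 88 in DESeq2, 2 with the block, and up to 230, the most without IL10_EV replicate 2. LPS_EV against IL10_EV had 18 and TGFB_EV against IL10_EV 160 without a filter, and 1 and 15 in DESeq2; leaving a library out gave up to 3 and 1. Any difference among groups had 309 without a filter, 1 with the block and up to 41.

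The replicate block changed no call of either row: LPS_EV over control_EV was -0.23 for Tlr4 and -0.10 for Tgfbr1. Of the 12 libraries 2 correlated best with their own number. The row displacements were -81.6 to -81.5 kb for Tlr4; for Tgfbr1, 0.1 kb with a penalty of 10 and 8.1 kb in the earlier scoring.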
